A study of Mus musculus with 3 samples.

Results

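The regions described here are the Ser5 peaks at promoters of protein-coding genes that were called in both Ser5 libraries of the study. They were chosen by 3 criteria: a peak of the untreated list, an overlap of at least 1 bp with a peak of the LPS list, and a nearest base within 1000 bp of an annotated protein-coding TSS (transcription start site, GENCODE M1 on the mm9 assembly), on chromosomes 1 to 19 and X. Of 53467 untreated peaks, 12344 (23.1%) met them. They are called members below. Because the choice rests on the peak calls, and so on the tags, of both libraries, the levels, lengths and changes given here are descriptions and support nothing beyond themselves.

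Serine 5 of the heptapeptide repeat in the C-terminal domain of the largest Pol_II subunit is phosphorylated by the Cdk7 kinase of TFIIH when Pol_II starts transcription. The mark is known to be highest close to the TSS and to decline along the gene as serine 2 becomes phosphorylated. At many promoters Pol_II pauses shortly after initiation and is released by the kinase P-TEFb, so a Ser5 peak marks Pol_II that has initiated and does not by itself show a completed transcript. In macrophages, LPS (lipopolysaccharide of Gram-negative bacteria) is sensed by Tlr4 and activates NF-kB, AP-1 and interferon regulatory factors.

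The cells were macrophages differentiated for 7 days from bone marrow of female Fvb mice (Fvb/Hsd in the methods). The study sequenced 1 Ser5 ChIP-Seq library of untreated (UT) cells, 1 Ser5 library of cells given 10 ng/ml LPS for 2 h, and 1 library of input DNA (chromatin without immunoprecipitation) of untreated cells. No input library of LPS-treated cells was used here. Each condition has 1 library, so the differences have no replicate to be checked against. No test is given, and intervals are 95% intervals. For single regions they cover counting error only. For medians and shares they treat members or genes as separate draws, although these come from the same libraries and are not independent. No interval covers differences between replicate libraries. A member is described as higher or lower when its tags differed at least 2 times between the Ser5 libraries, with at least 10 tags over both. Tags are given as counts or as TPM, the count scaled to 1000000 tags of the library on these chromosomes. The libraries held 7616771 (UT), 6249819 (LPS) and 7533308 (input) such tags. In a population of cells, fewer cells with Pol_II at a promoter and less Pol_II per cell cannot be told apart.

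The promoters of the macrophage markers carried members and those of the markers of other blood and stromal cells did not, with few exceptions. All 11 macrophage markers, among them Csf1r, Emr1, Cd68 and Lyz2, held a member. Within 500 bp of their gene 5′ ends the summed level was 494 TPM in UT cells, 419 TPM after LPS and 18.1 TPM in the input. Of 50 markers of T cells, B cells, neutrophils, dendritic cells, erythroid cells and fibroblasts, 2 held a member: Lck, a kinase of T cells, and Cebpe, a transcription factor of granulocytes. The midpoints of these 2 members lay at +1174 and -875.5 bp from the nearest coding TSS, with UT lengths of 581 and 586 bp, so neither contained it. In the neutrophil list 2 further genes had a promoter peak in the untreated list only and 1 in the LPS list only. The summed level of each of the other lists was between 0.263 and 3.15 TPM in UT cells and below that of the input, except for the neutrophil list with 15.8 TPM in UT cells, 15.7 TPM after LPS and 8.89 TPM in the input.

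The sequences of 5 promoters are shown first: 2 from members with the largest ratio of LPS to UT tags, 1 from those with the smallest, and 2 with a ratio nearest to 1, in each of which the 200 bases before the TSS contain no annotated exon. Each sequence is from mm9 and runs 5′ to 3′ on the strand of the gene, ending at the base before the TSS. Capitals mark matches to the motifs searched, which are named after the sequences.
Cxcl1, chr5:91320067-91320266, plus strand, 99 UT and 6043 LPS tags: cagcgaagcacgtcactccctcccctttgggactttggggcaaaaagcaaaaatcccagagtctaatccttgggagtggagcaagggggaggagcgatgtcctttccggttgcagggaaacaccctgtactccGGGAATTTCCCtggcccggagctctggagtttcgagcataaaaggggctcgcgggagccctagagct
Saal1, chr7:53966051-53966250, minus strand, 153 UT and 6105 LPS tags: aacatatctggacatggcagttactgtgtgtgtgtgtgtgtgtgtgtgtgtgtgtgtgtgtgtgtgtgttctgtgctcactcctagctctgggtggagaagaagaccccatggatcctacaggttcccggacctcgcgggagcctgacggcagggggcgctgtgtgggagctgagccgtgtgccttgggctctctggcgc
Gcnt1, chr19:17431158-17431357, minus strand, 175 UT and 14 LPS tags: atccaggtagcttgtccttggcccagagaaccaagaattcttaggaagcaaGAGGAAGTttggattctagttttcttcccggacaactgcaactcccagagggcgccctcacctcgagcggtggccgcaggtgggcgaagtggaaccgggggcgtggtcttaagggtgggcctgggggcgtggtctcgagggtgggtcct
Tmem165, chr5:76612705-76612904, plus strand, 245 UT and 201 LPS tags: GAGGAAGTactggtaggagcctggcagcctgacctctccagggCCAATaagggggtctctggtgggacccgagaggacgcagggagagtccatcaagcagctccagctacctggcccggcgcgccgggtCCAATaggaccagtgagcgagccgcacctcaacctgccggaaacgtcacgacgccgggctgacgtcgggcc
Rbm6, chr9:107775151-107775350, minus strand, 334 UT and 274 LPS tags: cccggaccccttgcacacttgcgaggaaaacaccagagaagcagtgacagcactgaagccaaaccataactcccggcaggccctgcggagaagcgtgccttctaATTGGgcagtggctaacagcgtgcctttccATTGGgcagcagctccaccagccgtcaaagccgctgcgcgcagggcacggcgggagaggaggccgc

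The motifs were TATAAA, the GC box GGGCGG, the box of the letters CCAAT, the ETS motif CCGGAAGT, the PU.1 motif GAGGAAGT, the cyclic AMP element TGACGTCA, the AP-1 motif TGACTCA, the NF-kB consensus and the interferon-stimulated element GAAANNGAAA, each on both strands. The promoter of Cxcl1, a neutrophil-attracting chemokine, held overlapping matches to the NF-kB consensus that start 67 and 66 bases before the TSS. In the promoter of Gcnt1, a glycosyltransferase of O-glycans, the PU.1 motif started 149 bases before the TSS. Tmem165, a Golgi membrane protein, and Rbm6, an RNA-binding protein, each had a pair of CCAAT matches, at 157 and 71 and at 96 and 66 bases before the TSS, and Tmem165 also had a PU.1 motif at 200. A match describes these letters and does not show that a factor was bound.

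Over wider windows the promoters that held members were rich in GC and CpG. In the window from 500 bp before to 500 bp after the gene 5′ end, the median GC content was 58.9% for the 10452 genes with a member within 1000 bp of one of their TSSs, 54.7% for all 22350 coding genes and 48.7% for the 11008 without a promoter peak in either list. With CpG-rich defined as at least 50% GC and an observed over expected CpG ratio of at least 0.6, 73.8% of the genes with a member were CpG-rich, against 44.2% of all coding genes. The share was 43.8% of the 402 genes whose member was higher after LPS, 76.7% of the 8938 within 2 times and 61.2% of the 1112 with a lower member. In the 300 bases before the gene 5′ end, the NF-kB consensus was found in 12.2% of the genes with a higher member, in 4.86% of those with a lower one and in 4.88% of all coding genes. The element GAAANNGAAA was found in 10.9%, 3.78% and 4.12% of these groups, respectively. The ETS motif was found in 1.24% of the genes with a higher member, in 7.21% of those within 2 times and in 3.49% of all coding genes. TATAAA between 40 and 20 bases before the 5′ end was rare among genes with a member, at 0.756% against 2.28% of all coding genes, and was found in 1.99% of those with a higher member.

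The members made up 83.3% (interval 82.7% to 83.9%) of the 14810 untreated peaks near a coding TSS. Of the 38657 untreated peaks elsewhere, 43.2% overlapped an LPS peak. The share that overlapped an LPS peak depended on the deposited score (minus 10*log10 of the p-value of the peak caller). Among promoter peaks with scores from 50 to under 100 it was 42.3%, and from 1000 to under 2000 it was 99.7%. Among the other peaks the values were 30.3% and 94.8%. The nearest TSS belonged to 9518 genes. One member was nearest to 7341 genes, 2 to 1744 genes, 3 to 314 and 4 or more to 119, with 12 at Rnf213, a large ubiquitin ligase. Long LPS peaks joined several untreated peaks, and 8440 members (68.4%) overlapped a single LPS peak that overlapped no other untreated peak.

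The peaks of both lists were called against input DNA, so a Ser5 level above the input follows from the rule. Counted over the union of each untreated peak and the LPS peaks it overlapped, the median was 158 tags (quartiles 81 and 264) in UT cells, 108 (50 and 198) after LPS and 9 (5 and 15) in the input. Per length, the medians were 19.01, 16.3 and 1.13 TPM per kb. All members together held 29.7% of the UT tags, 30.3% of the LPS tags and 1.68% of the input tags. In 1 member the UT level was no higher than the input, and in 2 members the LPS level was no higher than the input.

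The profile of tags around the TSS was narrow in both Ser5 libraries. Its mean downstream flank was higher after LPS, with a small difference at the members within 2 times. Averaged over the 10859 nearest TSSs, the highest bin of 50 bp was centred 25 bp downstream of the TSS in both Ser5 libraries, at 55.9 TPM per kb in UT cells and 52.4 after LPS. The input was at 1.17 TPM per kb in that bin. Between 1500 and 2000 bp downstream the level was 2.57 TPM per kb in UT cells and 3.34 after LPS, and over the same distance upstream it was 2.02 and 1.92. The downstream values were 2.36 and 2.49 at the 9241 TSSs of members within 2 times. They were 4.21 and 22.04 at the 547 TSSs of higher members, and 3.57 and 1.53 at the 1228 of lower ones. Of the profile within 1000 bp of the TSS, 51.0% lay downstream in UT cells and 54.3% after LPS. At the TSSs of members within 2 times these shares were 50.3% and 52.3%. At the 5′ ends of coding genes with no promoter peak the highest bin reached 0.656 TPM per kb in UT cells.

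**Figure D1:**
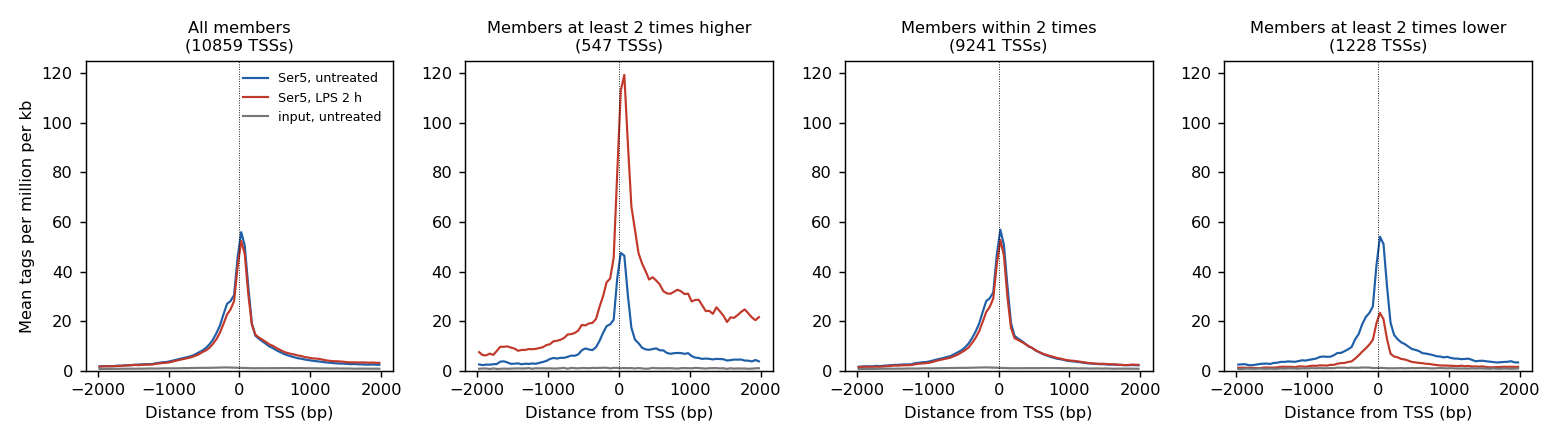
Mean Ser5 and input density (TPM per kb, vertical axis, tags moved 75 bp downstream) against distance from the nearest coding TSS (bp, positive in the direction of transcription) for all members and for the 3 classes of change, with lines for the UT, LPS and input libraries. The UT peak is 47.5 TPM per kb at TSSs of members that were higher after LPS and 54.1 at those that were lower, and the LPS peak is 119 and 23.4, respectively.

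Most members changed by less than 2 times. The median log2 ratio of LPS to UT tags was -0.21 (interval -0.22 to -0.20), or a ratio of 0.866, and 34.8% of members had a higher TPM after LPS. There were 700 higher members (5.67%, 5.28% to 6.09%), 1272 lower members (10.3%, 9.78% to 10.9%) and 10372 (84.02%) within 2 times. Members that overlap the same LPS peak share tags, so 1 region can count as several higher members. Merged where they overlap, the members formed 10968 regions. Among the 8440 members that paired with 1 LPS peak alone, 301 (3.57%) were higher and 1025 (12.1%) lower. Among all 64477 merged peak regions of either list with at least 10 tags, 28.0% were at least 2 times higher, 27.8% at least 2 times lower and the median log2 ratio was -0.13. Those regions include peaks called in 1 library only, which the rule leaves out of the members, so nothing is read from the difference. When the libraries were scaled to the tags outside all peaks, each log2 ratio moved up by 0.11, the median became -0.10, and 808 members were higher and 1008 lower, so that the higher ones made up 44.5% of those past 2 times instead of 35.5%.

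**Figure D2:**
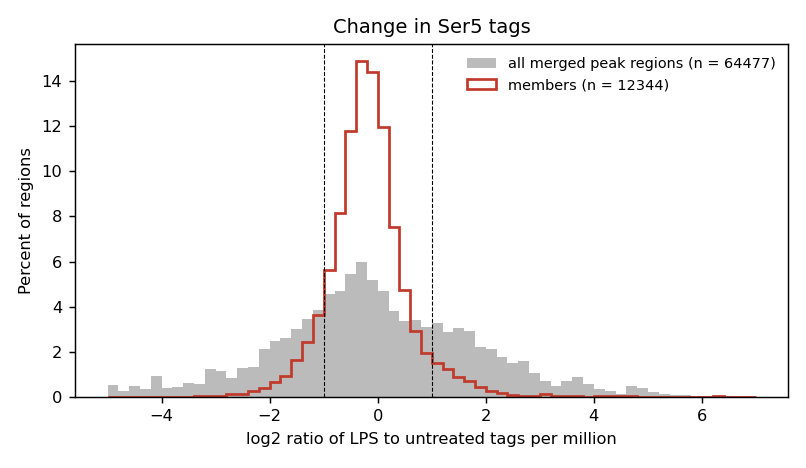
Distribution of the log2 ratio of LPS to UT TPM (horizontal axis, bins of 0.2) as percent of regions (vertical axis) for the 12344 members (line) and the 64477 merged peak regions of both lists (grey), with dashed lines at 2 times. The members lie mostly between the dashed lines, with a median of -0.21.

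The 10 members with the largest ratio, among those with at least 50 tags, included chemokine, interferon-response and inflammatory enzyme genes, and also a transporter gene and a region that runs over a serum amyloid gene. Cxcl10, a chemokine that attracts T cells, had 92 UT, 6824 LPS and 26 input tags at chr5:92773896-92778247, a ratio of 90.4 (73.6 to 112). Rsad2, which encodes the antiviral enzyme viperin, had 258 UT, 17479 LPS and 92 input tags, a ratio of 82.6 (73.0 to 93.7). The region at Cxcl1 had 99 UT, 6043 LPS and 16 input tags, a ratio of 74.4 (61.0 to 91.7). In these 3 regions the UT level did not exceed 3.27 TPM per kb while the LPS level reached 251, 174 and 243, where 39.2 was the 95th percentile of all members. The regions take their extent from the LPS peaks, and the UT peaks were only 459, 735 and 647 bp long. The UT level is thus averaged over bases outside the UT peak. Within 500 bp of the TSS the UT and LPS tags were 41 and 1499, 48 and 2128, and 66 and 2858, respectively. The Cxcl10 region also overlaps Art3.

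The region at Saal1 had 153 UT and 6105 LPS tags, a ratio of 48.6, but its LPS peak runs over the neighbouring Saa3, an acute-phase serum amyloid gene. Within 500 bp of the Saal1 TSS the ratio was 9.49. The cystine transporter gene Slc7a11 had 33 and 882 tags (ratio 32.6, 23.0 to 47.6), and Ptgs2, which encodes the prostaglandin synthase Cox-2, had 13 and 338 (31.7, 18.3 to 60.1). Nos2, the inducible nitric oxide synthase, had 43 and 875 tags (24.8, 18.3 to 34.5). Cxcl2, a chemokine next to Cxcl1 on chromosome 5, had 209 and 3961 tags (23.1, 20.1 to 26.7). The interferon-induced genes Oasl1 and Ifit1 had ratios of 26.2 (20.1 to 34.8) and 22.6 (18.4 to 28.2), the latter over a region that also overlaps 2010002M12Rik. Counted within 500 bp of the TSS, the 10 ratios were between 9.49 and 54.0.

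The 10 members with the smallest ratio included genes of macrophage surface receptors, lipid mediators and the cell cycle. Trem2, a lipid-sensing receptor of macrophages, had 769 UT, 28 LPS and 50 input tags at chr17:48485148-48488354, a ratio of 0.0444 (0.0293 to 0.0647). The LPS level there, 1.40 TPM per kb over the region, was below that of the input, 2.07. Alox5, the enzyme that starts leukotriene synthesis, had 132 and 9 tags (ratio 0.0831, 0.0372 to 0.163). Stab1, a scavenger receptor, had 305 and 24 tags (0.0959, 0.0605 to 0.145), with 26 in the input, over a region that also overlaps Nt5dc2.

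Ccnd1, whose cyclin D1 drives entry into the cell cycle, had 205 UT and 19 LPS tags (ratio 0.113, 0.0666 to 0.181). Gcnt1 had 175 and 14 tags (0.0975, 0.0522 to 0.168). The RNA-binding protein gene Zfp36l2 (0.115) and the haematopoietic transcription factor gene Lyl1 (0.116), whose region also overlaps Nfix, followed, then Pdxk, a kinase of vitamin B6 (0.117), Add3, a protein of the membrane skeleton (0.121), and Gas6, a ligand of the Axl and Mer receptors (0.123). In these 10 the LPS tags were between 9 and 56, and the ratio within 500 bp of the TSS was between 0.0677 and 0.194. The Add3 peak lay 802 to 1323 bp downstream of the TSS and did not contain it. Within 500 bp of that TSS there were only 27 UT and 3 LPS tags.

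The cytokine, interferon and NF-kB lists had positive median log2 ratios and no member lower by 2 times. For reference, of the 10452 genes with a member, taking for each gene the member with the most tags, 402 (3.85%) were higher after LPS and 1112 (10.6%) lower, and the median log2 ratio was -0.25. The gene lists were written with earlier results of these data known, and the counts below are descriptions. Scaled to the tags outside peaks, the count of higher or lower genes of each list moved by at most 3. Of 32 secreted cytokine and chemokine genes, 17 had a member, of which 12 were higher and 0 lower, with a median log2 ratio of 1.71. Cxcl10 and Cxcl1 were the highest, and Tgfb1, an anti-inflammatory cytokine (733 and 450 tags, ratio 0.748), and the chemokine gene Ccl6 (33 and 22 tags, 0.812, 0.451 to 1.44) the lowest. A further 8 genes of this list, among them Il6, Il1b, Il12b and Ccl5, had a promoter peak in the LPS list only and so are no members.

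Of 38 interferon response genes, 34 had a member, of which 24 were higher and 0 lower, with a median of 1.48. Rsad2 and Oasl1 were the highest, and Irf8, a lineage factor of macrophages (497 and 256 tags, 0.628), and Ifnar1, a chain of the type I interferon receptor (402 and 240 tags, 0.728), the lowest. Of 32 genes listed as NF-kB subunits, feedback regulators and related NF-kB targets, 31 had a member, of which 17 were higher and 0 lower, with a median of 1.11. The highest were 2 enzyme genes that are neither subunits nor feedback regulators, Ptgs2 and Irg1, the enzyme that makes itaconate, the latter with 1332 UT, 22011 LPS and 86 input tags and a ratio of 20.1 (19.1 to 21.3). Among the feedback regulators, Socs3, an inhibitor of cytokine signalling, had 422 and 3430 tags (9.91), and Nfkbia, which encodes the inhibitor I-kappa-B-alpha, 2115 and 9918 (5.72). Nfkbid, a nuclear inhibitor of NF-kB (1004 and 493 tags, 0.598), whose region also holds the TSS of Hcst, and Dusp5, a phosphatase of MAP kinases (142 and 74 tags, 0.635), were the lowest.

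The immediate early transcription factor genes, which are known to respond within minutes, had members at 27 of 28 genes, of which 3 were higher and 1 lower at this 2 h time point, with a median of 0.10. Atf3 (917 and 2377 tags, ratio 3.16) and Klf6 (2010 and 4213 tags, 2.55) were the highest. Klf10 (768 and 167 tags, 0.265) and Jun (1113 and 469 tags, 0.514) were the lowest. The members of this list were long, with a median UT length of 2026 bp against 902 bp for all genes with a member.

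Macrophage lineage and surface genes were divided. Of 33, 28 had a member, with 5 higher and 9 lower and a median of -0.60. Marco, a scavenger receptor (52 and 354 tags, ratio 8.30, 6.19 to 11.3), and Cybb, a subunit of the phagocyte oxidase (30 and 90 tags, 3.66), were the highest, and Cd14, the co-receptor for LPS, had 1028 and 2822 tags (3.35). Trem2 and Itgb2, an integrin chain (153 and 35 tags, 0.279), were the lowest, and Lyz2, lysozyme, had 2078 and 606 tags (0.355). Mrc1 and Cx3cr1 had a promoter peak in the untreated list only.

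Several housekeeping and growth lists leaned lower. Of 45 genes for lysosomal enzymes, membrane proteins and the proton pump, all had a member, 0 were higher and 13 lower, with a median of -0.68. The cathepsin gene Ctsd had 4490 UT and 576 LPS tags (0.156, 0.143 to 0.171) and Psap, the precursor of saposins, 1812 and 385 (0.259). The lysosomal membrane protein gene Scarb2 (141 and 160 tags, 1.38) and Ctsz (771 and 852, 1.35) were the highest. Of 50 cell cycle and DNA replication genes, 49 had a member, 0 were higher and 17 lower, with a median of -0.75. Ccnd1 and Mcm2, a subunit of the replicative helicase (134 and 24 tags, 0.218), were the lowest, and the cell cycle inhibitor genes Cdkn1a (1159 and 1334 tags, 1.40) and Cdkn1b (453 and 408 tags, 1.10) the highest. All 27 genes of cholesterol synthesis and uptake had a member, 0 were higher and 6 lower, with a median of -0.71. Lss, lanosterol synthase (192 and 30 tags, 0.190), and Cyp51, the next enzyme of the pathway (236 and 76 tags, 0.392), were the lowest, and Nr1h2, the oxysterol receptor LXR-beta (155 and 141 tags, 1.11), had the highest ratio of the list.

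The lists of ribosomal, proteasome, respiratory chain, splicing and Pol_II genes had few or no members past 2 times. All 76 genes of cytosolic ribosomal proteins had a member and 0 were higher or lower, with log2 ratios between -0.83 and 0.45 and a median of -0.15. The extremes were Rps2 (443 and 497 tags, 1.37) and Rps29 (128 and 143, 1.36) against Rpl30 (344 and 159, 0.563) and Rpl10a (724 and 364, 0.613). All 31 proteasome subunit genes had a member with 0 higher or lower and a median of -0.06, which lies above 0 when scaled to the tags outside peaks, from Psma7 (1.52), whose region also holds the TSS of Ss18l1, and Psma3 (1.36) to Psma1 (0.572) and Psmb1 (0.581). Of 72 respiratory chain genes, all with a member, 0 were higher and 2 lower, from Ndufa2 (1.55), whose region also holds the TSS of Ik, and Ndufa3 (1.22) to Cox7b (0.449) and Ndufa4 (0.466). Of 52 splicing factor and hnRNP genes, 0 were higher and 2 lower, from Srsf5 (1.18) and Snrpb (1.12) to Prpf19 (0.453) and Hnrnpr (0.472). Among 45 genes of Pol_II, pausing and elongation factors 0 were higher and 3 lower. Aff1, a scaffold of the super elongation complex (231 and 286 tags, 1.51), and Ccnt2, a cyclin of P-TEFb (317 and 370 tags, 1.42), were the highest, and Gtf2h2, a TFIIH subunit (78 and 24 tags, 0.375), and Ccnh, the cyclin partner of Cdk7 (91 and 28 tags, 0.375), the lowest. The medians of these last 3 lists were -0.24, -0.18 and -0.21.

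**Figure D3:**
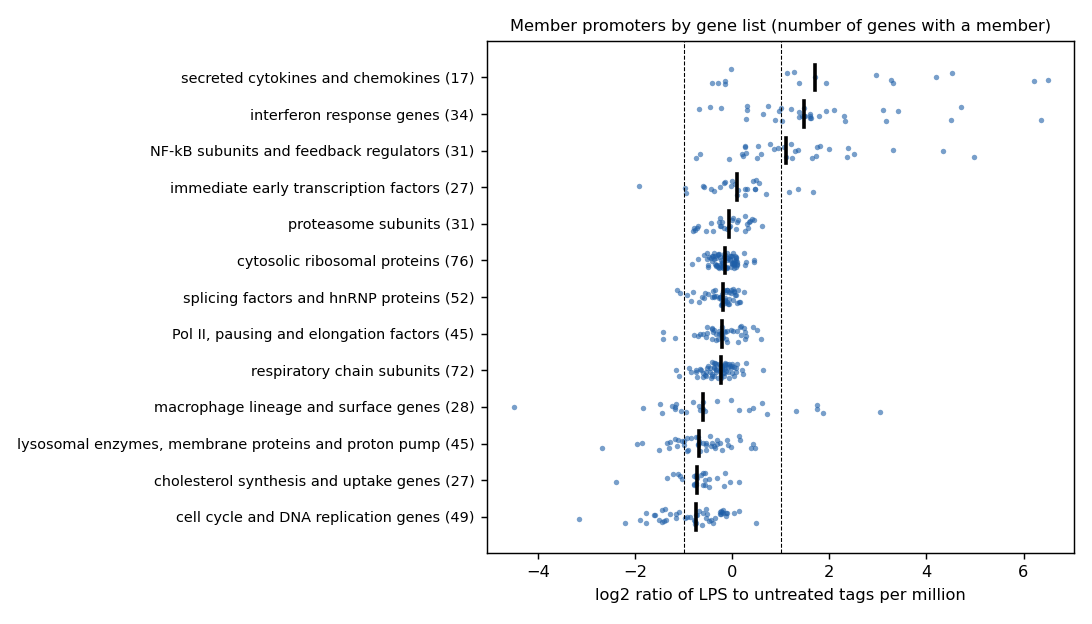
Log2 ratio of LPS to UT TPM (horizontal axis) for each gene with a member (points, placed with vertical scatter) in 13 gene lists, with the median of each list as a bar, the number of genes in brackets and dashed lines at 2 times. The cytokine, interferon and NF-kB lists have medians of 1.11 to 1.71, and the cell cycle, cholesterol and lysosomal lists of -0.75 to -0.68.

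The members varied widely in length. The UT peak ran from 108 to 18348 bp, with quartiles of 509 and 1179 bp and a median of 791 bp (779 to 802), while the LPS peaks spanned a median of 870 bp (857 to 883). The median ratio of lengths was 1.01 (1.00 to 1.02), with 1650 members at least 2 times longer and 492 at least 2 times shorter after LPS. The direction of this median depended on how peaks were matched: among the members that paired with 1 LPS peak alone it was 0.934 (0.928 to 0.940). The length followed the change in tags. The 700 higher members went from a median of 532 bp to an LPS span of 2113 bp, and the 1272 lower members from 817 to 499 bp. Both measures come from the same tags and are not independent.

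Longer members were denser and more often contained the TSS. Members under 300 bp had a median of 7.87 TPM per kb in UT cells, contained the TSS in 30.2% of cases, and were higher after LPS in 17.3% and lower in 3.75%. Those of 500 to under 1000 bp had 19.6 TPM per kb, contained the TSS in 83.3%, and were higher in 3.95% and lower in 11.3%. The 99 longest members had 26.3 TPM per kb and were higher in 10.1% and lower in 27.3%. The rule keeps a weak UT peak only where an LPS peak was also called, so nothing is read from these differences.

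The longest members reached many kb away from the TSS. The longest lay over Ctsb, a lysosomal cathepsin, at chr14:63741042-63759389, with 5021 UT, 1665 LPS and 179 input tags and a ratio of 0.404 (0.382 to 0.427). It met 13 separate LPS peaks, whose outer span of 18274 bp was close to the UT length. At Ctsd the UT peak of 15773 bp met 8 separate LPS peaks with an outer span of 13692 bp, while the tags fell to a ratio of 0.156. These spans include the gaps between the LPS peaks. Fam20c, a kinase of secreted proteins, had 12197 bp and a ratio of 1.46, and Pfn1, profilin, 10908 bp and 0.771, in a region that also overlaps Slc25a11 and Rnf167. At Slco4a1, an organic anion transporter, the peak of 11299 bp met an LPS peak of 644 bp whose downstream edge was at -4411 bp from the TSS, so no LPS peak of this member lay at the promoter, with 1517 and 286 tags (0.230). The members with the most UT tags were at Fth1 (8921 UT, 14756 LPS and 109 input tags, ratio 2.02) and Ftl1 (5757 and 4034, 0.854), the heavy and light chains of ferritin, and at Actb, beta-actin (6163 and 6577, 1.301), followed by Ctsb and Ctsd.

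**Figure D4:**
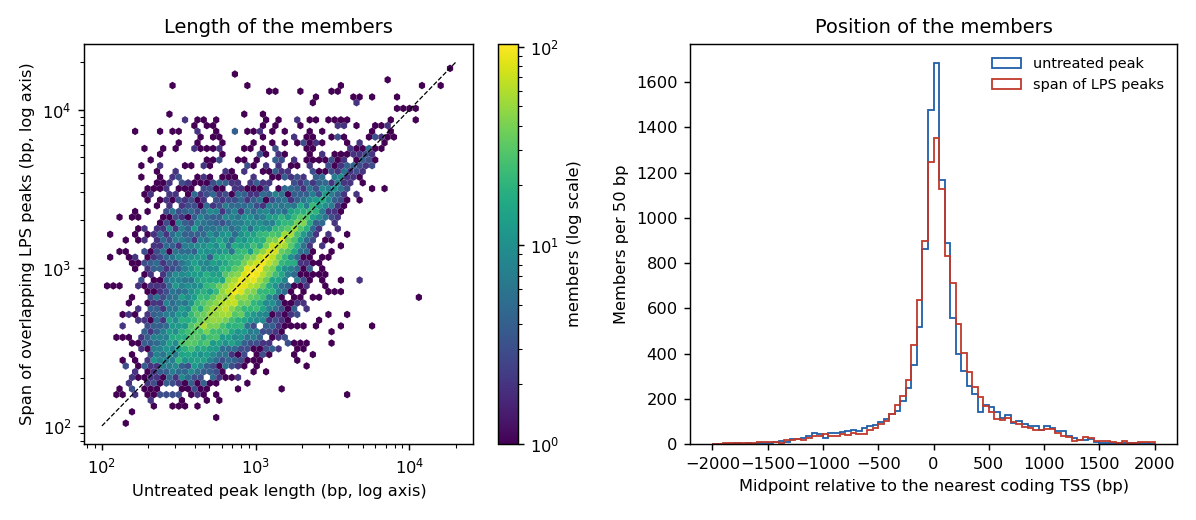
Left, length of the UT peak (bp, log axis) against the span of the LPS peaks that it overlaps (bp, log axis) for the members, with the number of members in colour and equal lengths as a dashed line. Right, number of members per 50 bp by midpoint position relative to the nearest coding TSS (bp) for UT peaks (median 32) and LPS spans (median 44).

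The members were centred just downstream of the TSS. The midpoint of the UT peak had a median position of +32 bp (interval 28.5 to 36), and 66.2% of midpoints lay within 250 bp of the TSS. The TSS lay inside 9674 members (78.4%), while 1107 (8.97%) lay wholly upstream and 1563 (12.7%) wholly downstream of it. In the members with the TSS inside, the median upstream edge was at -386 bp and the downstream edge at +462 bp. After LPS the edges were at -374 and +467 bp. Peaks called only in the untreated list at a promoter contained the TSS in 30.9% of 2466 cases, and those only in the LPS list in 21.1% of 1324. These were also short, with median lengths of 352 and 342 bp.

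The position of the tags differed between the classes of change. In members with the TSS inside, the median position of the tags was 10 bp downstream of the TSS in UT cells and 16 bp after LPS, and it lay farther downstream after LPS in 57.0% of them. In those of them that were higher after LPS it went from 47.3 to 95.5 bp, farther downstream in 74.0%. In the 1062 lower ones it went from 19 to 16.5 bp, farther downstream in 44.4%. Around the TSSs of higher members the level between 1500 and 2000 bp downstream was 4.21 TPM per kb in UT cells and 22.04 after LPS, and at lower members 3.57 and 1.53. The classes were chosen by the tags of these libraries, over regions that include the LPS peaks. Nothing is therefore read from the differences between them.

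Members that did not contain the TSS were shorter and more often higher after LPS. The wholly downstream ones were short (median 452 bp) and were higher in 12.6% and lower in 7.04%, with a median log2 ratio of 0.04. The wholly upstream ones (median 445 bp) were higher in 10.0% and lower in 9.03%, with a median of -0.09. Of the members with the TSS inside, 4.05% were higher and 10.98% lower, with a median of -0.25. These members also had the higher scores, with a median of 1095 against 131 and 164. Peaks of low score became members less often, because the rule asks for an LPS peak too. A short peak is also less likely to contain the TSS, so nothing is read from these differences.

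Gene bodies overlapped in part with what the rule used, since long members and their LPS peaks run past 1000 bp into the gene, as the LPS peak at Rsad2 does, so the body values are descriptions too. For the 8699 genes with a member that were at least 5000 bp long, tags were counted from 1000 bp downstream of the 5′ end to the gene end, and in the window within 500 bp of the 5′ end, with at least 10 tags in each. The median body level was 0.937 TPM per kb in UT cells and 0.825 after LPS, against 0.637 in the input, and the promoter window was 20.0 times as dense as the body in UT cells, 18.5 times after LPS and 1.77 times in the input. The median body log2 ratio was -0.20 (-0.22 to -0.18), against -0.17 for all 15178 coding genes of that length with enough tags. Of the member genes 6.50% had a body at least 2 times higher and 11.96% at least 2 times lower, where all such genes gave 6.29% and 11.1%. In the promoter window 3.28% were higher and 10.6% lower, and over all 11641 coding genes with enough tags in that window 4.77% and 14.2%. The shares for the body lay close to those of all genes.

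Where promoter window and body both passed 2 times, they seldom moved in opposite directions. Of 285 genes with a higher promoter window, 204 (71.6%) had a higher and 2 a lower body. Of 919 with a lower window, 425 (46.2%) had a lower and 3 a higher body, and 491 bodies stayed within 2 times. Of the 7495 within 2 times at the promoter, 358 had a higher and 613 a lower body. Across these genes Spearman's rho of the paired log2 ratios was 0.58, over genes of the same libraries, which are not independent.

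Some bodies changed while the promoter window stayed within 2 times. Among genes with at least 50 tags in each, the largest body ratio was at Mrpl39, a mitochondrial ribosomal protein gene, with 76 UT and 863 LPS tags in the body (ratio 13.8, 10.9 to 17.7) and 115 and 81 at the promoter, and the non-coding gene Mir155 lies within 10 kb of it. Ifit2, an interferon-induced gene, had 141 and 1187 body tags (10.3) with 55 and 79 at the promoter. Fam102b (9.28), Malt1, a protease of NF-kB signalling (8.87), and 3110003A17Rik, whose body also holds Gm17711 (6.91), followed. At the other end were Lfng, a modifier of Notch receptors, with 556 and 44 body tags (0.0964, 0.0693 to 0.131) and a promoter ratio of 0.527, Slc2a8, a glucose transporter (0.141), Lrrc27 (0.147), Zranb3, an annealing helicase whose body also holds Rpl28-ps1 (0.148), and Ogg1, a DNA repair glycosylase whose body also holds Camk1 (0.166). The promoter ratios of Slc2a8, Lrrc27, Zranb3 and Ogg1 were 0.601, 0.536, 0.795 and 0.743, so several of these promoters were lower too without passing 2 times. Genes that overlap another gene share its tags.

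**Figure D5:**
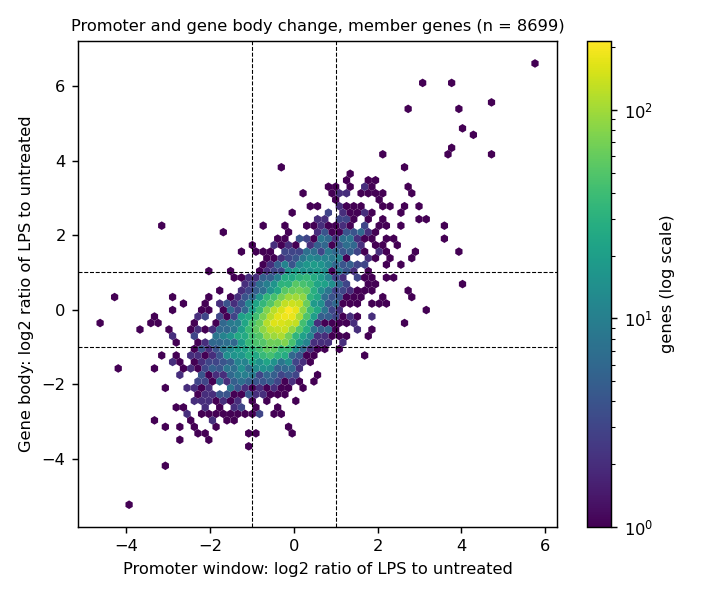
Log2 ratio of LPS to UT tags within 500 bp of the gene 5′ end (horizontal axis) against that of the gene body (vertical axis) for the 8699 genes with a member, with the number of genes in colour and dashed lines at 2 times. Most genes lie between the dashed lines on both axes, and 204 lie past 2 times in the upper right corner.

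The LPS tags were 30 bases long and the UT tags 45, and shorter tags map less often to a unique place. Of the members, 2795 (22.6%) had at least 1% of their 30-base sequences more than once in the genome. The share was 43.6% of the higher members and 21.5% of the lower ones. Without these 2795 members the median log2 ratio was -0.22, with 395 higher and 999 lower. The median did not move in 1 direction with the repeated share: it was -0.22 for the 9549 members under 1%, -0.12 for the 1778 from 1% to 5%, -0.23 for the 886 from 5% to 20%, and -0.51 (-0.64 to -0.20) for the 131 with more. The part of tag length in the change was not tested. By GC content of the region, the 3086 members of lowest GC (median 51.2%) had a median log2 ratio of -0.04 with 447 higher members, and the 3086 of highest GC (67.1%) -0.24 with 68. The repeated share and the GC content were both taken over the union of the untreated and LPS peaks. They thus depend on how far the LPS peaks reach, and nothing is read from how they vary with the change.

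Values on either side of the limits of the rule were close. The 182 members in the last 100 bp inside the distance limit had a median length of 459 bp and a median ratio of 1.08, and the 184 shared peaks in the first 100 bp outside it, which are no members, 512 bp and 1.07. The 88 members that shared 1 to 50 bp with LPS peaks had a median log2 ratio of -1.15 over the UT peak and a median score of 68.8. The 159 promoter peaks that ended 0 to 50 bp from an LPS peak, which are no members, had -1.21 and 74.7.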

How the data were processed

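The authors trimmed the Ser5 reads at their 3′ end, aligned uniquely mappable reads to mm9 with Bowtie and called peaks per library against input DNA with MACS (versions not given in the sources used here). The deposited tag files give the position of each tag. The score in the deposited peak lists is minus 10*log10 of the p-value, at least 50. Tags were 45 (untreated), 30 (LPS) and 36 (input) bases long in the files. The supplementary methods give the untreated and LPS lengths the other way round. Tag coordinates were read as 0-based with both ends included, since no tag then started or ended on an undetermined base.

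Tags were counted by their 5′ end, with duplicates, over the union of each untreated peak and the LPS peaks it overlapped, and scaled to all tags on chromosomes 1 to 19 and X. A count of 0 was set to 0.5. Ratios have exact intervals conditional on the sum, shares Wilson intervals and medians order-statistic intervals, all at 95%. For profiles and tag positions, tags were moved 75 bp downstream. The distance between strands was 85 to 95 bp in the 3 libraries. Sequences were read from the mm9 genome.

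The named members are the 10 of largest and the 10 of smallest ratio, 1 per gene, with at least 50 tags, the 5 longest, the 5 with the most untreated tags, and the 2 highest and 2 lowest of each gene list. A gene and a sequence that this rule selects are not reported here. Other genes named, the bodies that changed without the promoter and the motifs for NF-kB and interferon were chosen after values were seen. The members and lists were chosen with earlier results of these data known. Alternatives covered the peak score, overlap, distance, TSS set, scaling, duplicates, window, tag shift, input subtraction and repeats. Functions were tested on simulated data. Python 3.11.15, numpy 2.4.6, pandas 2.3.3, scipy 1.17.1, numba 0.67.0 and matplotlib 3.10.9 were used.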

Additional observations from a re-analysis of the deposited data

How the results depend on the processing

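There are no replicates to leave out. No paired analysis was possible because each condition has 1 library and the results come from no test. Of the values recomputed under an alternative, 29 were labelled the same, 11 moved and 2 reversed. A median was the same when it lay within the interval of the main value. The label was broad for counts. It took in 483 higher members instead of 700 and 916 lower instead of 1272, with a score of at least 100 in both lists. The median log2 ratio of LPS to untreated tags (-0.21) was -0.10 when scaled to tags outside peaks, -0.15 with 1 tag per position and strand, -0.25 over the untreated peak only and -0.27 among members matched 1 to 1. The 700 higher members became 395 without members with repeated sequence and 301 among those matched 1 to 1. In the latter the higher ones made up 22.7% of those past 2 times. The median untreated length was 876 bp with a score of at least 100 in both lists. The median length ratio of 1.01 turned to 0.987 with that score and to 0.934 among members matched 1 to 1, and was 1.00 with the summed LPS length. The median midpoint was 73.5 bp downstream from gene 5′ ends only and 44 bp for the LPS spans. The median body log2 ratio was -0.093 when scaled to tags outside peaks. The causes of these shifts were not tested. The matching by 1 to 1 and the repeat alternatives were chosen after seeing the data. The counting intervals limit what can be said of single members with few tags.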

Other observations

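Members on chromosome 13 had a lower median log2 ratio (-0.40, 497 members) than those on any other chromosome of chromosomes 1 to 19 and X (-0.28 to -0.14). Outside peaks, the log2 ratio of LPS to untreated tags on chromosome 13 was -0.11, within the range of the other chromosomes (-0.19 to -0.02). The replication-dependent histone genes, which encode the core and linker histones of new chromatin, held 69 of these members, with a median of -0.76 and medians of 274 untreated and 145 LPS tags. Without them the median on chromosome 13 was -0.31 over 428 members. Without all members that had at least 1% repeated 30-base sequences it was -0.275 (-0.33 to -0.21) over 327 members. That value lies within the range of the other chromosomes, for which all members were kept. Over all chromosomes 81 members lay at histone genes, of which 22 (27.2%) were at least 2 times lower, against 10.3% of all members and 12.4% of those on chromosome 13 without histone genes. All 69 histone members on chromosome 13 had at least 1% of their 30-base sequences more than once in the genome, with a median share of 10.5%, and genes of this family share near-identical sequence, so their tags are uncertain. The part of tag length in these values was not tested. The histone genes were chosen after values were seen.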
